A study of Homo sapiens with 4 samples.

Results

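Homologous recombination repairs broken DNA by copying an intact sister molecule, and the Fanconi anaemia pathway removes links between the strands and hands the resulting breaks to recombination. Broken ends are first trimmed to single strands, the BRCA proteins then prepare these for pairing, motor proteins and paralog complexes promote the search for the matching sequence, and helicases resolve the joined molecules. The pathway works in S and G2 phase, when a sister copy exists, and many of its genes are transcribed in the cell cycle with the replication genes. Its defects are well known in ovarian cancer, where they sensitise cells to platinum and PARP inhibitors.

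The set held 37 genes, chosen by symbol for their place in these pathways, of 26255 genes in the deposited table. All 37 were listed, and 34 averaged 1 FPKM or more across the 4 libraries, as did 12260 genes in all. FPKM is the number of fragments per kilobase of transcript and per 1000000 mapped fragments, so it can be compared between genes. Just inside that minimum lay BRIP1, with a mean of 1.20 FPKM, and just outside it BRCA2, with a mean of 0.980 FPKM.

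The cells were TOV21G, an established human line labelled as ovarian clear cell carcinoma. The cells received As2O3 at 1 µM together with GSK458 at 0.1 µM, or GSK458 alone at 0.1 µM, or As2O3 alone at 1 µM, each for 48 h, and the control received no drug. As2O3, or arsenic trioxide, binds thiols and is given in acute promyelocytic leukaemia, and GSK458 is labelled as an inhibitor of PI3K and mTOR, kinases that drive growth. Poly(A) RNA was sequenced in 1 library per group, so no value has a replicate error. No test was run, and every difference describes these libraries only.

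The whole-library figures were as follows. FPKM sums lay between 543975 and 588892, the absolute depth is unknown, and the steps between low values put the depths of the treated libraries at 85.8% to 109% of the control's. Of 7 clear cell markers, PAX8 stood at 83.6 to 149 FPKM and ANXA4 at 156 to 310 FPKM, while NAPSA stayed between 0.66 and 1.06 FPKM. The other 4 varied more between libraries, TFPI2 from 32.0 to 664 FPKM, GPX3 from 2.12 to 155, CRYAB from 24.9 to 94.2 and SPP1 from 571 to 1947, each lowest in the control. Of 6 epithelial markers, the keratins KRT8 and KRT18 were abundant, at 166 to 241 FPKM, whereas the keratin KRT19 was at 0.13 to 0.52 FPKM. The epithelial adhesion genes EPCAM and CDH1 were at most 1.71 and 0.22 FPKM, and CLDN4 was at most 0.92 FPKM. Most markers of other cell types were below 1 FPKM in every library, with exceptions. Of 6 fibroblast markers 4 were below 1 FPKM in every library, with COL3A1 and LUM listed at 0 and sums of 2.32 to 5.98 FPKM. The exceptions were COL1A1, at 1.58 to 4.24 FPKM, and COL1A2, at 0.40 to 1.45 FPKM. Of 6 immune markers 5 were below 1 FPKM in every library, with PTPRC, CD3E and MS4A1 listed at 0 and sums of 1.12 to 4.33 FPKM. The exception was CD68, at 0.78 FPKM in the control, 1.12 with GSK458, 2.63 with both drugs and 4.15 with As2O3. All 5 endothelial markers were below 1 FPKM in every library, with KDR and TEK listed at 0 and sums of 0.0169 to 0.0786 FPKM.

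Most of the recombination and Fanconi genes were lower with GSK458, 14 of 34 by at least 2-fold, while RAD50, RAD51D, RAD52, FANCE and ATM were higher by less than 2-fold. As2O3 alone left most of the set near the control level. The 34 genes summed to 183 FPKM with both drugs, 168 FPKM with GSK458, 312 FPKM with As2O3 and 304 FPKM in the control. Differences below are of log2(FPKM + 1), a scale that understates differences of low genes, and a gene is called 2-fold apart where this difference is at least 1 in size. With GSK458, 14 of 34 genes passed 2-fold below the control and none passed it above. Of all 12260 genes, 3.87% were 2-fold lower and 2.35% higher in that comparison. The median difference was −0.95 over the 34 genes and −0.0050 over all genes, and 29 of the 34 were below 0. Just inside the 2-fold limit lay RAD51C at −1.07, and just outside it FANCA at −0.99. Among the 14, BRIP1, EXO1, XRCC2, BLM and FANCM were below 1 FPKM in both libraries with GSK458. They thus reached the minimum mean only through the libraries without it. With no minimum mean the count was 14 of 37 genes, where 1.87% of all 26255 genes were 2-fold lower. The count was 4 with a pseudocount of 5 FPKM, where 2.104% of all genes were 2-fold lower. It was 6 among the 20 genes that averaged 5 FPKM or more, where 3.88% of all such genes were. With a pseudocount of 0.1 FPKM it was 19 (5.09% of all genes), and after rescaling every library to sum to 1000000 it was 20 (5.28%).

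**Figure D1:**
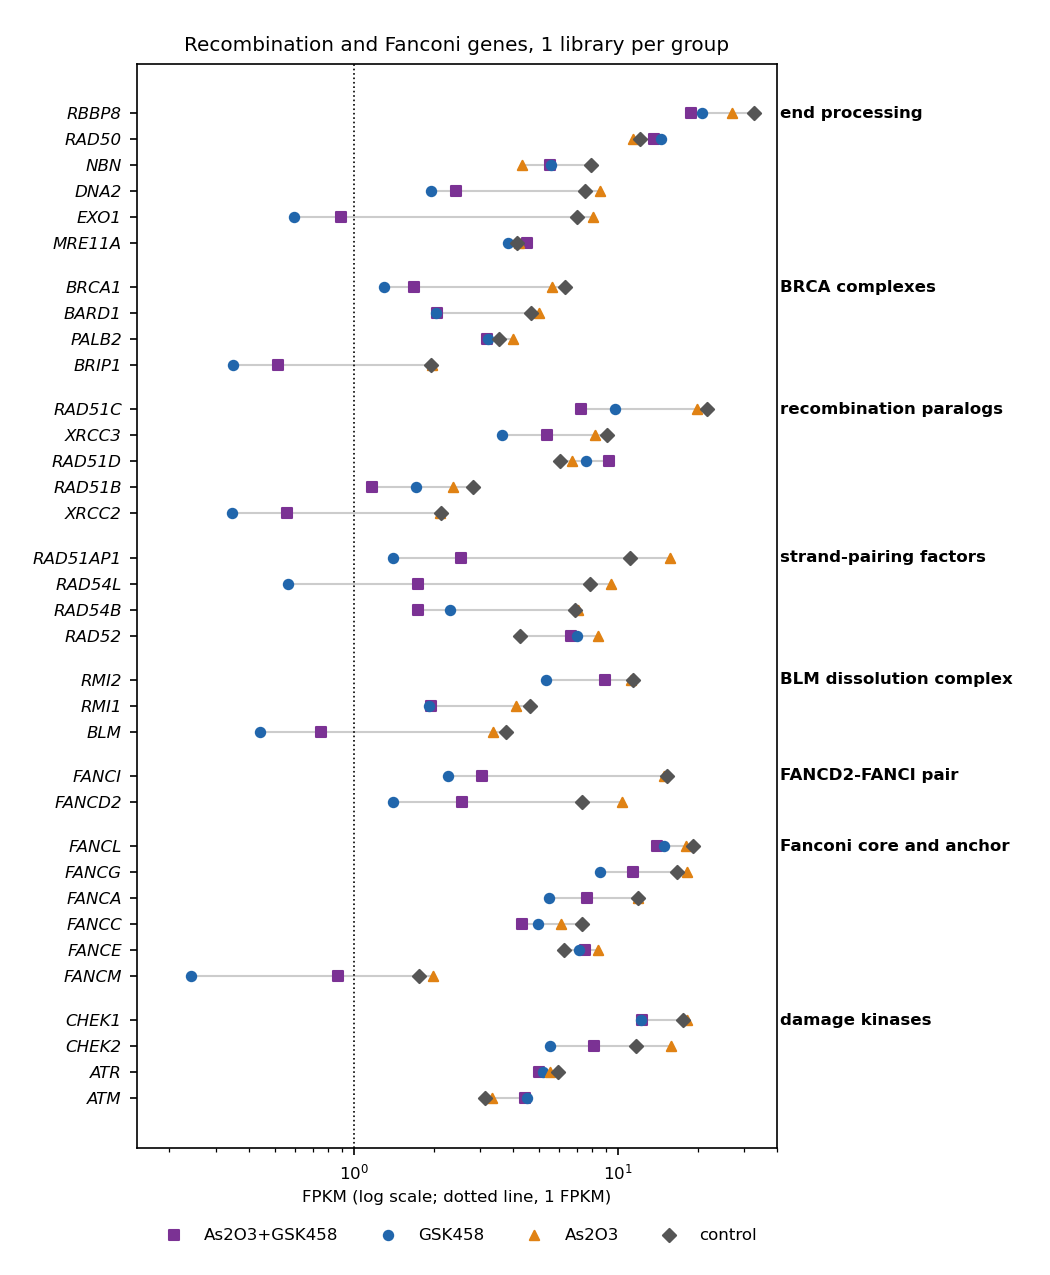
FPKM (log axis) of the 34 genes averaging 1 FPKM or more, grouped by role, in the libraries with both drugs (squares), GSK458 (circles), As2O3 (triangles) and no drug (diamonds). The squares and circles lie left of the other symbols for most genes, 6 circles and 5 squares lie below the dotted line at 1 FPKM, and RAD51D, ATM and RAD50 show the opposite order.

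Set against As2O3 alone, a comparison that shares no library with the first, the library with both drugs had 10 of 34 genes at least 2-fold lower and none higher. Of all genes, 4.27% were 2-fold lower and 2.28% higher in that comparison. The count was 6 with a pseudocount of 5 FPKM (2.25% of all genes) and 5 among the 20 genes that averaged 5 FPKM or more (4.25% of all such genes). With a pseudocount of 0.1 FPKM it was 15 (5.65%), and after rescaling every library to sum to 1000000 it was 13 (4.57%). All 10 were among the 14 genes 2-fold lower with GSK458 alone. Over all genes, 306 of the 524 that were 2-fold lower here were so in both comparisons. EXO1 and BLM, among the 10, reached the minimum mean only through the libraries without GSK458. The other 4 of the 14 were XRCC2, BRIP1, FANCM and XRCC3, with differences of −0.999, −0.97, −0.68 and −0.52. The median was −0.63 over the 34 genes and −0.022 over all genes. In both comparisons 27 of the 34 genes were lower and 3, RAD50, RAD51D and ATM, were higher. Of all 12260 genes, 4541 were lower in both and 4199 higher in both. Across the 34 genes Pearson's r between the 2 sets of differences was 0.92 and Spearman's rho 0.92, against 0.62 and 0.61 over all 12260 genes. These are correlations across genes, which are not independent replicates and share the scaling of each library. BRIP1, EXO1, XRCC2, BLM and FANCM passed the filter only through the libraries without GSK458, which favours low values in both comparisons. They are among the 27 lower genes and enter both correlations, so these are given as values only.

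**Figure D2:**
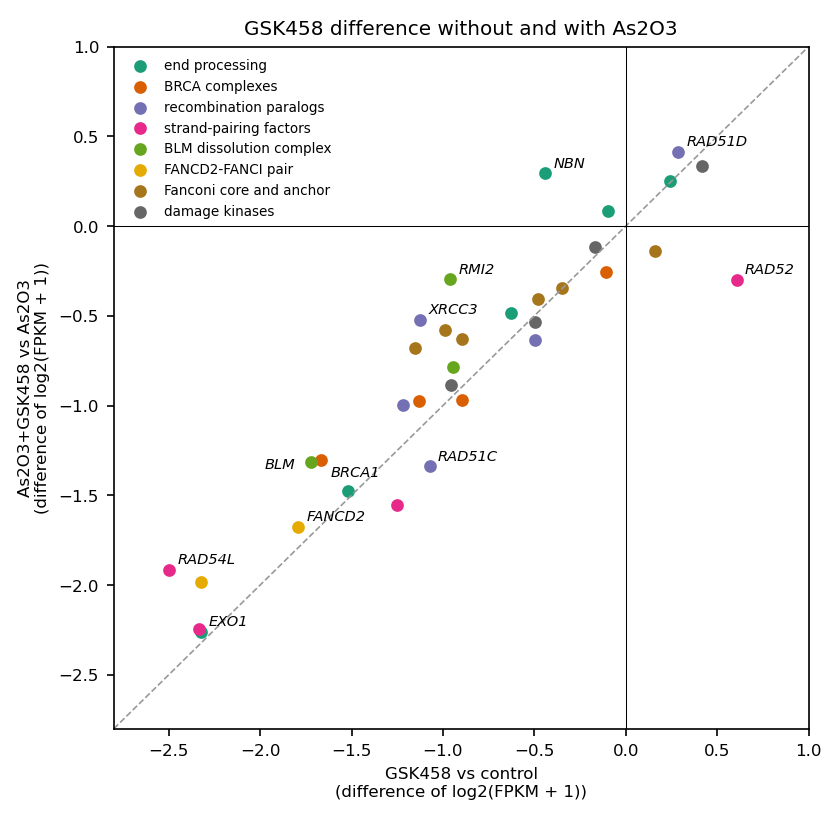
Difference of log2(FPKM + 1) between GSK458 and control (x axis) and between both drugs and As2O3 (y axis) for the 34 genes, coloured by role, with the line of equality dashed. Most points lie near the dashed line in the lower left, from EXO1 at −2.32 and −2.26 upwards, while 4 genes, NBN, RAD52, MRE11A and FANCE, have opposite signs on the axes, the last 2 by less than 0.25 on each.

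With both drugs set against the control, 11 of 34 genes were at least 2-fold lower and none higher, while 4.31% of all genes were 2-fold lower and 3.25% higher. The median was −0.65 over the 34 genes and −0.013 over all genes. This comparison shares the control with that of GSK458 alone, so the values are not a separate reading. With a pseudocount of 5 FPKM the count was 4, and 2.096% of all genes were 2-fold lower. Among the 20 genes that averaged 5 FPKM or more it was 5, and 4.29% of all such genes were.

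6 of the 34 genes stood below 1 FPKM in a treated library, 6 with GSK458 and 5 of these, all but RAD54L, with both drugs. None was below 1 FPKM with As2O3 alone or in the control. Of all 12260 genes, 1.96% were below 1 FPKM with both drugs, 1.93% with GSK458, 3.04% with As2O3 and 2.42% in the control. Since the mean had to reach 1 FPKM, a gene low in both libraries with GSK458 had to be higher in the others, and nothing is read from that contrast here. RAD54L, a motor protein that acts on DNA during pairing, stood at 1.75 FPKM with both drugs, 0.564 with GSK458, 9.37 with As2O3 and 7.84 in the control. The nuclease EXO1, which resects broken ends over long distances, stood at 0.89 FPKM with both drugs, 0.593 with GSK458, 8.06 with As2O3 and 6.98 in the control. BLM, the helicase mutated in Bloom syndrome, had 0.751 FPKM with both drugs, 0.441 with GSK458, 3.36 with As2O3 and 3.76 in the control. EXO1 and BLM, below 1 FPKM in both libraries with GSK458, reached the mean of 1 FPKM only through the libraries without it. The levels of these 3 genes, RAD54L included, are given as values only. XRCC2, a subunit of a paralog complex, had 0.555 FPKM with both drugs, 0.346 with GSK458, 2.11 with As2O3 and 2.13 in the control. BRIP1, the helicase that binds BRCA1, had 0.515 FPKM with both drugs, 0.349 with GSK458, 1.98 with As2O3 and 1.96 in the control. FANCM, the DNA translocase that anchors the Fanconi core complex at stalled forks, had 0.871 FPKM with both drugs, 0.241 with GSK458, 1.99 with As2O3 and 1.76 in the control. These last 3 were already near 2 FPKM without GSK458, where the added pseudocount weighs most. FANCM kept 13.7% of its control FPKM with GSK458, BRIP1 17.8% and XRCC2 16.2%, all without a pseudocount, against 7.19% for RAD54L. The same limit of the filter holds for the percentages of FANCM, BRIP1 and XRCC2, and RAD54L is named here for its low value with GSK458.

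3 genes did not reach the mean of 1 FPKM. BRCA2, which acts on single-stranded DNA after resection, stood at 0.622 FPKM with both drugs, 0.284 with GSK458, 1.51 with As2O3 and 1.498 in the control. FANCB, a core complex subunit, had 0.468 FPKM with both drugs, 0.197 with GSK458, 1.42 with As2O3 and 1.23 in the control. Both were lower in the libraries with GSK458 than in those without it. FANCF, an adaptor subunit of the core complex, was listed at 0 with both drugs, with GSK458 and in the control, and at 0.0240 FPKM with As2O3. Since a listed 0 may mark an estimate that failed, no fold is given for FANCF. GAS2, the gene that starts beside FANCF on the other strand, was also low, at 0.04 to 0.09 FPKM.

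The promoters of 7 genes, picked by hand, are shown. The set is known for cell-cycle transcription, in which E2F factors act on S phase genes and the factor NF-Y on CCAAT boxes. The sequences are from RefSeq, build GRCh38.p14, whereas the submitters' notes name hg19 for the expression values. Each runs 5′ to 3′ on the strand of its gene, from 250 bases before the start to 50 bases after it. EXO1, RAD54L and FANCC have 2 promoters each, and the one shown was chosen for its matches to the marked letters. Capitals mark E2F-type octamers (TTTGGCGC, TTTCCCGC, TTTCGCGC or TTTGCCGC) and CCAAT, on either strand. EXO1, FANCD2 and XRCC2 are at least 2-fold lower with GSK458 and hold an octamer, RAD51AP1 and RAD54L are among the lowest genes and hold CCAAT alone, FANCC holds 2 octamers and is less than 2-fold lower, and RAD50 is higher and holds neither.
EXO1 (chr1:241847954-241848253, + strand): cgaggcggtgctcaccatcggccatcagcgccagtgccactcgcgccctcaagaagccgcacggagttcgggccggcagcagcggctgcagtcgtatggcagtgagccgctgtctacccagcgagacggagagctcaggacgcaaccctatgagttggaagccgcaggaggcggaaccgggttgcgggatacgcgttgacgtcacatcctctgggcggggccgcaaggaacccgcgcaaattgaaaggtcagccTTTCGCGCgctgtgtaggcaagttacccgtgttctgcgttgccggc
FANCD2 (chr3:10026187-10026486, + strand): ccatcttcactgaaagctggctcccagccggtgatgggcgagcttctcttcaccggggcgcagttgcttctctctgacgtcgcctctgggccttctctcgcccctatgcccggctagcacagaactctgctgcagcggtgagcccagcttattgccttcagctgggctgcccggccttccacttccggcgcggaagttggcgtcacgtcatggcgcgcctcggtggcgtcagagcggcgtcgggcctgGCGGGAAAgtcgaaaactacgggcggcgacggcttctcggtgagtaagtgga
XRCC2 (chr7:152676092-152676391, - strand): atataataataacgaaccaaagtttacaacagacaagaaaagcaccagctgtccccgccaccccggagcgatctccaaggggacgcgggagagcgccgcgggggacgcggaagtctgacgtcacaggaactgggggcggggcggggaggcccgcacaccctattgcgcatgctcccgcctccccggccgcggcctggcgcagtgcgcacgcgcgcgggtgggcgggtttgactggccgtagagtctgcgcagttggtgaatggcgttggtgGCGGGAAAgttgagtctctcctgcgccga
RAD51AP1 (chr12:4538640-4538939, + strand): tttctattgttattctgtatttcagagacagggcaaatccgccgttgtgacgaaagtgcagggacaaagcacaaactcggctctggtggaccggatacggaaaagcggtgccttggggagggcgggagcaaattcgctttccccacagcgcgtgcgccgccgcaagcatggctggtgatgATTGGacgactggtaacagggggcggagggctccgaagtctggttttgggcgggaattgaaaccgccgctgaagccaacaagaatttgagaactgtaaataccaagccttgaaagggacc
RAD54L (chr1:46247438-46247737, + strand): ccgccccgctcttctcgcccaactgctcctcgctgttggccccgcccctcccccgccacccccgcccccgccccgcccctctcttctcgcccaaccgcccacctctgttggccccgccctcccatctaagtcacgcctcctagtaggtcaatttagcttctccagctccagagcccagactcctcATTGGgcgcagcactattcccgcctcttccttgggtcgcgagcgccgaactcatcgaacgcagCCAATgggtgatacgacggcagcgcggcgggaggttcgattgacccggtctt
FANCC (chr9:95317660-95317959, - strand): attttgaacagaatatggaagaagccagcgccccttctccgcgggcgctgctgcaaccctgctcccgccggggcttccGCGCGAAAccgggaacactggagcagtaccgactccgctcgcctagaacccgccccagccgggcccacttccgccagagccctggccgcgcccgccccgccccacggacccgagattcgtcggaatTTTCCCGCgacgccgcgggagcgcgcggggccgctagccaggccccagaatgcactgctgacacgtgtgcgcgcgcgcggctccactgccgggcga
RAD50 (chr5:132556727-132557026, + strand): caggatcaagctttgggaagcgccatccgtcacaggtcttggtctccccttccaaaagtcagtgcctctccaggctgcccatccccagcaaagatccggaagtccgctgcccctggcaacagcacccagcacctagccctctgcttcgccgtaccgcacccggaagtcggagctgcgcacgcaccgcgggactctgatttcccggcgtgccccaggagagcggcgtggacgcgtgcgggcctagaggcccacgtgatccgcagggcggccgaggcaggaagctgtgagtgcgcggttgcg

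RefSeq promoters were found for 32 of the 37 genes, MRE11A under the symbol MRE11. A gene with several starts was counted as holding the letters if any of its promoters did. The octamers of EXO1 and FANCC lay only in the promoter shown above, not in the other promoter of each gene. Counted from 1 at the start, with negative positions before it, the octamer began at 5 in EXO1, at 22 in XRCC2, at −2 in FANCD2, and at −172 and −46 in FANCC. An octamer was present in 6 of the 32 genes (18.8%), which were these 4, RMI1 and FANCA. It was present in 3.99% of all genes in the promoter table and in 6.85% of the 9232 with a promoter among the 12260 genes compared. Of the genes 2-fold lower with GSK458, 3 of 11 with a promoter held it, and 3 of the 18 other genes did. CCAAT was present in 15 of 32 genes (46.9%), against 39.7% of all genes and 43.6% of those 9232. It stood in 7 of 11 genes that were 2-fold lower and in 7 of 18 others. The letters TTTGAA, found in promoters of many mitotic genes, were in 3 of 32 genes (9.38%), against 18.2% of all genes and 13.04% of those 9232. In the list of 20 replication licensing genes 12 of 17 promoters held an octamer, 12 of 17 held CCAAT and 1 of 17 held TTTGAA. In the list of 20 mitotic genes 2 of 16 held an octamer, 14 of 16 held CCAAT and 10 of 16 held TTTGAA. No octamer overlapped a CCAAT or TTTGAA in these genes. A match describes letters in this window and is not shown to be a binding site.

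End processing begins with the MRE11–RAD50–NBN complex, which holds and trims broken ends. MRE11A, its nuclease, stood at 4.50 FPKM with both drugs, 3.83 with GSK458, 4.20 with As2O3 and 4.16 in the control. The ATPase RAD50 stood at 13.7 FPKM with both drugs, 14.5 with GSK458, 11.4 with As2O3 and 12.1 in the control. For both genes all 4 libraries lay close together, with differences of −0.10 and 0.24 between GSK458 and control. NBN, the subunit that recruits ATM, stood at 5.53 FPKM with both drugs, 5.57 with GSK458, 4.32 with As2O3 and 7.93 in the control, so that the control was highest and As2O3 lowest. RBBP8, also called CtIP, which starts resection with this complex, was the most abundant gene of the set in every library, at 18.9 FPKM with both drugs, 20.8 with GSK458, 26.9 with As2O3 and 32.7 in the control. The nucleases of long-range resection differed more. EXO1, whose values and promoter are given above, had differences of −2.32 between GSK458 and control and −2.26 between both drugs and As2O3. DNA2, the nuclease-helicase that works beside EXO1, stood at 2.44 FPKM with both drugs, 1.96 with GSK458, 8.57 with As2O3 and 7.50 in the control. Of the 6 end-processing genes, these 2 were at least 2-fold lower with GSK458, and the median of the 6 was −0.54. The limit of the filter given above holds for EXO1. MRE11A shares 225 exon bases with ANKRD49 on the other strand, and reads of the pair cannot be told apart unless strand was used in the counting. RBBP8 has 2 pseudogenes by name in RefSeq and MRE11A has 1, so their values are uncertain where reads map to several places.

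In the BRCA complexes, BRCA1, the ubiquitin ligase that promotes resection, stood at 1.69 FPKM with both drugs, 1.297 with GSK458, 5.63 with As2O3 and 6.31 in the control. Its obligate partner BARD1 stood at 2.07 FPKM with both drugs, 2.05 with GSK458, 5.01 with As2O3 and 4.66 in the control. BARD1 exceeded BRCA1 in both libraries with GSK458, and BRCA1 exceeded BARD1 in the others. PALB2, the bridge between BRCA1 and BRCA2, had 3.19 FPKM with both drugs, 3.21 with GSK458, 4.01 with As2O3 and 3.54 in the control, and its difference with GSK458 was −0.11. All 4 measured genes of this group were lower with GSK458 (median −1.01), BRCA1 and BRIP1 at least 2-fold. BRIP1 reached the minimum mean only through the libraries without GSK458, so nothing is read from its difference. BRCA1 has 1 pseudogene by name in RefSeq, BRCA1P1, which may share reads with it.

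The 5 recombination paralogs, RAD51B, RAD51C, RAD51D, XRCC2 and XRCC3, act in complexes early in recombination and did not move as a block. RAD51C, a subunit of both paralog complexes, stood at 7.24 FPKM with both drugs, 9.77 with GSK458, 19.9 with As2O3 and 21.7 in the control. XRCC3, its partner in the smaller complex, stood at 5.40 FPKM with both drugs, 3.64 with GSK458, 8.19 with As2O3 and 9.11 in the control. RAD51C was lowest with both drugs and XRCC3 lowest with GSK458 alone. RAD51D, which pairs with XRCC2 in the other complex, stood at 9.26 FPKM with both drugs, 7.54 with GSK458, 6.71 with As2O3 and 6.01 in the control, so that every treated library was above the control. RAD51B stood at 1.17 FPKM with both drugs, 1.71 with GSK458, 2.37 with As2O3 and 2.82 in the control. XRCC2, RAD51C and XRCC3 were at least 2-fold lower with GSK458, at −1.22, −1.07 and −1.12, while RAD51B was at −0.50 and RAD51D at 0.28. For XRCC2 the limit of the filter given above holds. RAD51D and XRCC2, which act in the same complex, thus stood at 7.54 and 0.346 FPKM with GSK458, against 6.01 and 2.13 FPKM in the control. Exons of XRCC3 share 1452 bases with KLC1 on the other strand, which stood at 39.9 FPKM with GSK458 and 38.1 FPKM in the control, and RAD51D shares exons with the readthrough RAD51L3-RFFL, listed at 0.192 to 0.512 FPKM.

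Among the strand-pairing factors, RAD51AP1, which stabilises the joined molecule, stood at 2.53 FPKM with both drugs, 1.40 with GSK458, 15.8 with As2O3 and 11.1 in the control. RAD54L was the lowest gene of the set on the log scale, at −2.50 between GSK458 and control, and RAD51AP1 followed at −2.34. RAD54B, a relative of RAD54L, stood at 1.74 FPKM with both drugs, 2.30 with GSK458, 7.05 with As2O3 and 6.85 in the control. These 3 were at least 2-fold lower in both GSK458 comparisons. RAD52, an annealing protein that backs up BRCA2, was higher with GSK458 than in the control and lower with both drugs than with As2O3, at 6.66 FPKM with both drugs, 6.97 with GSK458, 8.43 with As2O3 and 4.24 in the control. The control was the lowest library for RAD52 and the As2O3 library the highest. RAD54B shares 2891 exon bases with FSBP on the same strand, which stood at 1.22 FPKM with GSK458 and 0.754 FPKM in the control, so the split of reads between the pair is uncertain. RAD51AP1 and RAD52 have 1 pseudogene each by name in RefSeq. RAD54L shares 566 exon bases with LRRC41 on the other strand, at 44.8 and 39.4 FPKM in those libraries.

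The complex of BLM with RMI1 and RMI2 undoes joined molecules without crossover. RMI1 stood at 1.96 FPKM with both drugs, 1.93 with GSK458, 4.10 with As2O3 and 4.63 in the control. RMI2 stood at 8.90 FPKM with both drugs, 5.35 with GSK458, 11.2 with As2O3 and 11.3 in the control. All 3 were lower with GSK458, with differences of −1.72 for BLM, −0.94 for RMI1 and −0.96 for RMI2, and only BLM passed 2-fold. Since BLM reached the minimum mean only through the libraries without GSK458, nothing is read from its difference. The library with both drugs lay between GSK458 and control for RMI2 and beside GSK458 for RMI1.

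FANCD2 and FANCI form the clamp that is ubiquitinated to start crosslink repair. FANCI stood at 3.05 FPKM with both drugs, 2.27 with GSK458, 14.98 with As2O3 and 15.4 in the control. FANCD2 stood at 2.56 FPKM with both drugs, 1.40 with GSK458, 10.4 with As2O3 and 7.33 in the control. Together they summed to 5.61 FPKM with both drugs, 3.67 with GSK458, 25.4 with As2O3 and 22.7 in the control. FANCI was in place 21 of 34 by level with GSK458 and in place 6 in the control. FANCD2 has 2 pseudogenes by name in RefSeq, and FANCI shares 431 exon bases with POLG on the other strand, at 14.7 FPKM with GSK458 and 17.2 FPKM in the control.

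The Fanconi core complex, the ubiquitin ligase that modifies FANCD2 and FANCI, differed less. FANCL, its catalytic subunit, stood at 14.1 FPKM with both drugs, 14.9 with GSK458, 18.1 with As2O3 and 19.3 in the control. FANCA, a scaffold subunit, stood at 7.65 FPKM with both drugs, 5.50 with GSK458, 11.9 with As2O3 and 11.9 in the control. FANCG, which binds FANCA, stood at 11.4 FPKM with both drugs, 8.52 with GSK458, 18.2 with As2O3 and 16.7 in the control. All 3 were lower in both libraries with GSK458 than in both libraries without it. FANCL shares 452 exon bases with VRK2 on the other strand, which stood at 11.7 FPKM with GSK458 and 14.4 FPKM in the control. FANCC stood at 4.32 to 7.30 FPKM, highest in the control, and had a difference of −0.48. FANCE, which links the core to FANCD2, stood at 7.51 FPKM with both drugs, 7.11 with GSK458, 8.37 with As2O3 and 6.26 in the control, a difference of 0.16 with GSK458. Of the 6 measured genes only FANCM was 2-fold lower, and the median was −0.69. As FANCM reached the minimum mean only through the libraries without GSK458, nothing is read from its difference. FANCA shares 1402 exon bases with ZNF276 on the other strand, which stood at 7.62 FPKM with GSK458 and 4.68 FPKM in the control.

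The damage kinases divided as well. CHEK2, the effector kinase downstream of ATM, stood at 8.12 FPKM with both drugs, 5.54 with GSK458, 15.9 with As2O3 and 11.7 in the control. CHEK1, the effector of ATR, stood at 12.3 FPKM with both drugs, 12.2 with GSK458, 18.2 with As2O3 and 17.6 in the control. ATM, the kinase that senses broken ends, stood at 4.45 FPKM with both drugs, 4.51 with GSK458, 3.33 with As2O3 and 3.13 in the control, higher in both libraries with GSK458. ATR, the kinase of stalled forks, stood between 5.04 and 5.95 FPKM in all 4 libraries. None of the 4 was 2-fold apart with GSK458, with differences of −0.96 for CHEK2, −0.49 for CHEK1, −0.17 for ATR and 0.41 for ATM. CHEK2 has 6 pseudogenes by name in RefSeq, and its value is uncertain where reads map to several places.

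The order of levels in the set changed with GSK458. In the control the 5 highest genes were RBBP8, RAD51C, FANCL, CHEK1 and FANCG, and with GSK458 they were RBBP8, FANCL, RAD50, CHEK1 and RAD51C. RAD51AP1 was in place 27 with GSK458 and place 11 in the control, and EXO1 in place 29 and place 18. In the other direction RAD52 was in place 9 with GSK458 and place 26 in the control, and ATM in place 16 and place 30.

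Genes of the pathways outside the set were read from lists chosen by function. Of 29 other recombination genes, 6 were 2-fold lower with GSK458 and 1 was 2-fold higher (median −0.49). EME1, a subunit of a structure-cutting nuclease, stood at 0.991 FPKM with both drugs, 0.125 with GSK458, 4.17 with As2O3 and 3.73 in the control. POLQ, the polymerase of an alternative end-joining route, and MND1, a meiotic recombination gene, had differences of −1.64 and −1.42, and PARPBP −1.28. FAM175A, the scaffold of the BRCA1-A complex, was the gene that was higher, at 31.4 FPKM with both drugs, 42.6 with GSK458, 13.4 with As2O3 and 13.9 in the control. Among 10 other Fanconi genes that were listed, UBE2T alone was 2-fold lower (list median −0.56). It encodes the ubiquitin-conjugating enzyme of the core complex and stood at 8.19 FPKM with both drugs, 7.96 with GSK458, 57.0 with As2O3 and 33.2 in the control. Of 16 other checkpoint genes 3 were 2-fold lower (median −0.55), which were the histone H2AFX at −2.51, the ATR mediator CLSPN at −1.90 and the fork protein TIMELESS at −1.72. WEE1 and TP53BP1, of the same list, had differences of −0.014 and −0.063.

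Repair lists of other pathways lay nearer to 0 than the set as a whole, and cell-cycle lists lay lower. None of 13 end-joining genes, 6 mismatch repair genes and 20 excision repair genes was 2-fold apart with GSK458 in either direction. Of all genes 3.87% were 2-fold lower and 2.35% higher, so none in lists this short is no result about them. The medians of these lists were −0.10, −0.13 and −0.19. Of 20 replication licensing genes 18 were at least 2-fold lower (median −1.80), and of 20 mitotic genes all 20 were (median −2.73). The proliferation gene MKI67 stood at 7.21 FPKM with both drugs, 2.08 with GSK458, 33.6 with As2O3 and 31.7 in the control, and the mitotic cyclin CCNB1 at 17.2 FPKM with both drugs, 9.86 with GSK458, 71.1 with As2O3 and 67.3 in the control. These levels moved with those of the recombination genes, and their part in the result was not tested. Fewer cycling cells and less RNA per cell cannot be told apart in bulk RNA.

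**Figure D3:**
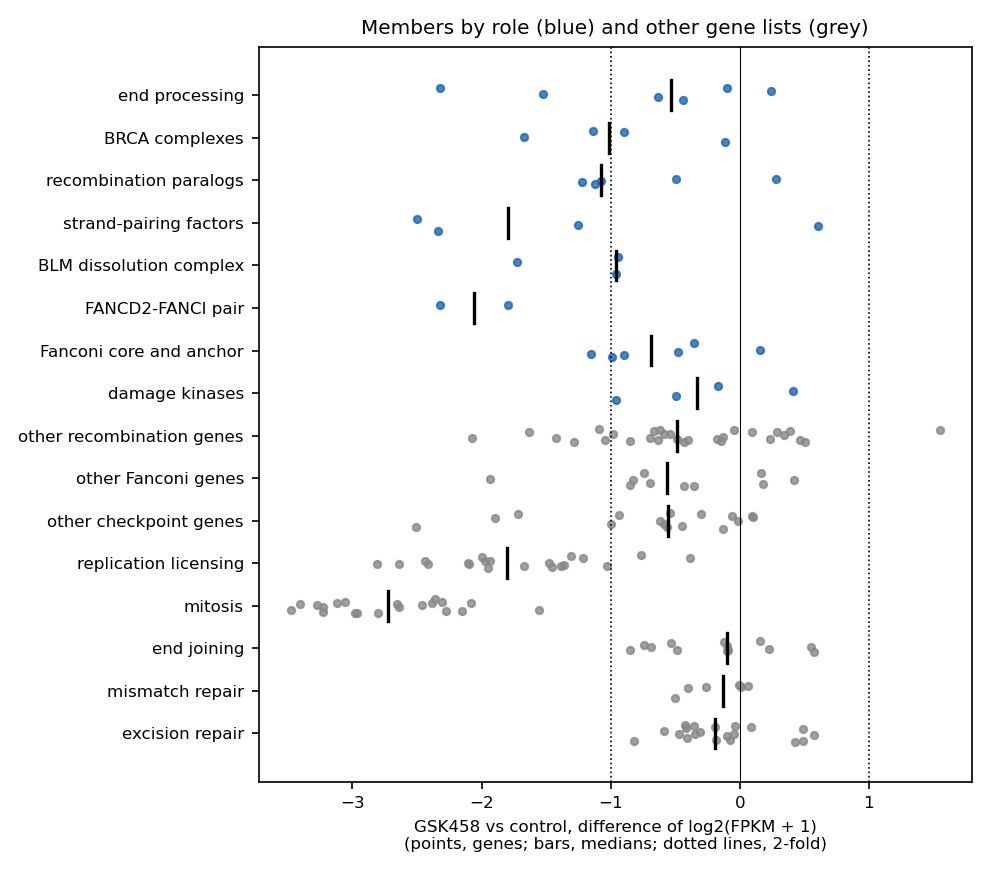
Difference of log2(FPKM + 1) between GSK458 and control for each gene of the set by role (blue) and of 8 other lists (grey), with a bar at each median and dotted lines at 2-fold. The medians of the set lie between −2.06 for FANCD2 and FANCI and −0.33 for the damage kinases, above that of mitosis at −2.73 and below that of end joining at −0.10. The median of replication licensing, at −1.80, lies within that range.

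As2O3 alone left the set close to the control. None of the 34 genes was 2-fold lower or higher, and of all genes 1.41% were lower and 2.07% higher. The median was 0.0098 over the 34 genes and 0.011 over all genes, and 27 of 34 genes (79.4%) were within 0.25 of the control, against 52.1% of all genes. After rescaling every library to sum to 1000000, 292 genes of the whole table were 2-fold lower and 246 higher with As2O3, where the deposited values gave 173 and 254. RAD52 had the highest difference, 0.85, with 8.43 FPKM in the As2O3 library and 4.24 FPKM in the control. NBN had the lowest, −0.75, with 4.32 and 7.93 FPKM. RAD51AP1, FANCD2, CHEK2 and FANCE were higher by 0.47, 0.45, 0.41 and 0.37. The mitotic list had a median of 0.37 in this comparison and the replication licensing list −0.18.

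With both drugs set against GSK458, none of the 34 genes was 2-fold lower or higher on the log2(FPKM + 1) scale. Of all genes 0.318% were 2-fold lower and 0.644% higher with both drugs than with GSK458. None among 34 is near those shares and is no result about the set. The median was 0.18 over the 34 genes and 0.0026 over all genes, with 22 genes higher and 12 lower. RAD54L had the highest difference, 0.81, at 1.75 FPKM with both drugs and 0.564 FPKM with GSK458. RMI2, FANCM, FANCD2 and RAD51AP1 followed at 0.64, 0.59, 0.57 and 0.56, while RAD51C was lowest at −0.39. The mitotic list had a median of 0.81 here, with 5 of 20 genes at least 2-fold higher, and the replication licensing list 0.22. With a pseudocount of 0.1 FPKM, 2 genes of the set, RAD54L and FANCM, were at least 2-fold higher, against 1.39% of all genes. Both were below 1 FPKM with GSK458, and FANCM reached the minimum mean only through the libraries without it.

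**Figure D4:**
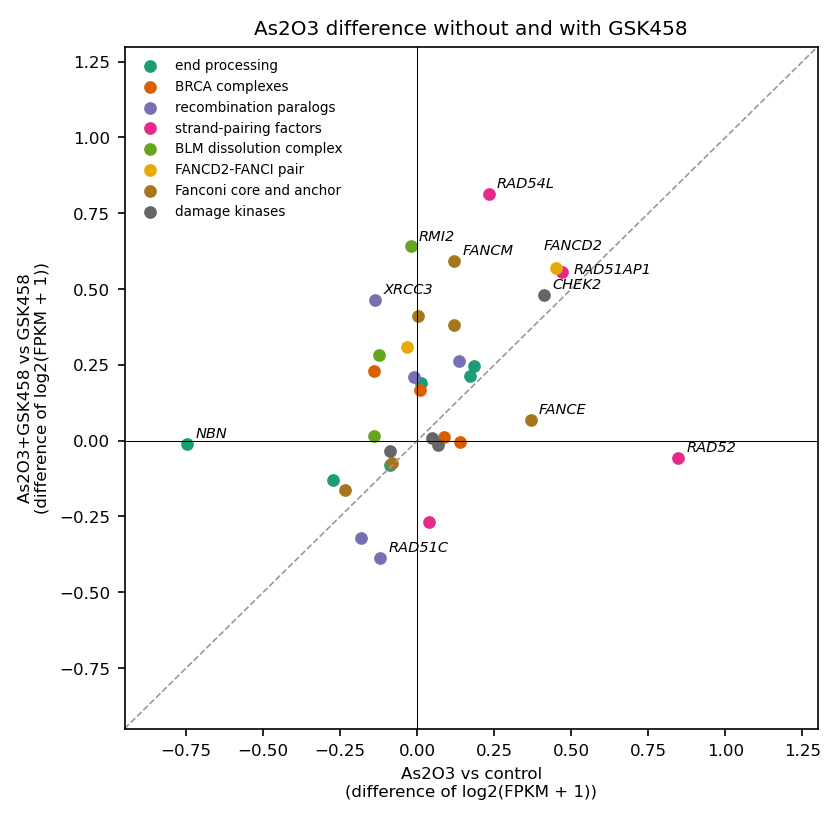
Difference of log2(FPKM + 1) between As2O3 and control (x axis) and between both drugs and GSK458 (y axis) for the 34 genes, coloured by role, with the line of equality dashed. No point passes 1 in size on either axis, NBN and RAD52 stand apart along the x axis alone, and RAD51AP1, FANCD2 and CHEK2 are above 0.4 on both.

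Across the 34 genes the 2 As2O3 comparisons, which share no library, had a Pearson's r of 0.35 and a Spearman's rho of 0.44, against 0.23 and 0.26 over all genes. 23 of 34 genes had the same sign in both, beside 7160 of all 12260 genes. The departure from additivity, which is both drugs minus As2O3 minus GSK458 plus control on the log scale, was above 0 in 25 of 34 genes (73.5%) and in 49.6% of all genes. Its median was 0.10 over the set and −0.0040 over all genes, and after rescaling every library to sum to 1000000 these were 0.27 and 0.13. It was highest for NBN at 0.74, RMI2 at 0.66, XRCC3 at 0.60 and RAD54L at 0.58, and lowest for RAD52 at −0.90. For RMI2, XRCC3 and RAD54L the library with both drugs stood above that with GSK458 and below that with As2O3.

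The genome positions offered a last view, added after the values of the set were known. 11 genes of the set have a neighbour on the other strand whose start lies within 1000 bases of theirs in GENCODE 29 and that also averaged 1 FPKM or more. With GSK458, 5 of these 11 genes and none of their neighbours were at least 2-fold lower, against 3.87% of all genes. At that share, none among 11 neighbours is no result about the neighbours. FANCM, among the 5, reached the minimum mean only through the libraries without GSK458. The median was −0.96 for the genes of the set and −0.033 for the neighbours, which ranged from −0.34 to 0.43. RAD51AP1 and its neighbour C12orf4 start 290 bases apart, and C12orf4 stood at 6.25 FPKM with GSK458 and 8.15 FPKM in the control, a difference of −0.34 beside −2.34 for RAD51AP1. NBR1, which starts 236 bases from BRCA1, stood at 34.4 FPKM with GSK458 and 26.6 FPKM in the control, a difference of 0.36 beside −1.67 for BRCA1. ZFYVE21, 226 bases from XRCC3, had a difference of −0.033 beside −1.12, and the transcribed pseudogene CIDECP, 49 bases from FANCD2, −0.16 beside −1.79. FKBP3, 621 bases from FANCM, had −0.21 beside −1.15. HSCB, 391 bases from CHEK2, had 0.43 beside −0.96. In all, 9 of the 11 genes were lower than their neighbour. RAD52 and ATM were higher than theirs, at 0.61 beside −0.11 for ERC1 and 0.41 beside 0.069 for NPAT.

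**Figure D5:**
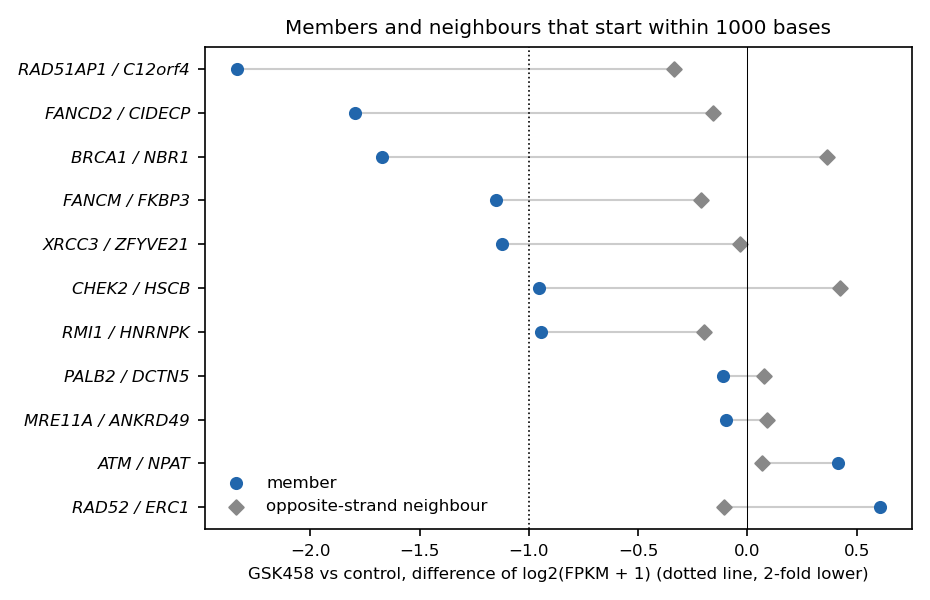
Difference of log2(FPKM + 1) between GSK458 and control for 11 genes of the set (circles) and for the opposite-strand gene that starts within 1000 bases of each (diamonds), ordered by the gene of the set. The diamonds lie between −0.34 and 0.43 in every pair, while the circles reach −2.34 for RAD51AP1.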

How the data were processed

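The deposited table gives FPKM values that the authors made from their reads. The submitters' processing notes name Cuffdiff 2.2.1, SAMtools 0.1.18, TopHat2 2.1.1 and Bowtie2 2.2.8 and the build hg19, without a role for any. The libraries came from a stranded mRNA kit, per the labels' protocols. Not given in the sources used here are the gene annotation, whether counting used strand, how multiply mapping reads were handled and the culture time of the control. Depth is unknown, so no counting interval was computed. The relative depth came from the commonest ratio, to 3 decimals, between low values of a library and the control.

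The FPKM values were not rescaled. Genes averaging 1 FPKM or more entered the comparisons on the log2 scale with a pseudocount of 1 FPKM, computed with Python 3.11.15, pandas 2.3.3 and scipy 1.17.1 after a check on simulated data. No test was run, since each group has 1 library, and the set is described by counts and medians beside all genes. The genes of the set, the other lists and the comparisons were chosen with earlier results of these data known. Each gene of the set is accounted for. Of another list, genes were taken from up to 4 each way that were 2-fold apart with GSK458 and up to 2 with the smallest difference. Exon overlaps and neighbours came from GENCODE 29, used for names and spacing only, and pseudogenes and promoters from RefSeq on GRCh38.p14. Alternatives were other pseudocounts, filters, scalings and a 1.5-fold limit. 1 gene was left out of the other recombination list and 1 out of the clear cell markers, and these are not reported here.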

Additional observations from a re-analysis of the deposited data

Results flagged for a closer look

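For 2 genes of the set the GSK458 difference had opposite signs without and with As2O3, by at least 0.25 in each comparison, a minimum chosen after the values were seen. The difference between the comparisons was not tested, since each group has 1 library. NBN was at −0.44 for GSK458 against control and at 0.29 for both drugs against As2O3. RAD52 was at 0.61 for GSK458 against control and at −0.30 for both drugs against As2O3. NBN and RAD52 are also the genes with the lowest and the highest difference between As2O3 and control. RAD52 has 1 pseudogene by name in RefSeq.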

How the results depend on the processing

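No paired analysis was possible because each group has 1 library, and for the same reason no library could be left out of a comparison. Of 123 values of counts and medians under 8 alternatives, 104 stayed within 1.5 times, or within 0.1 log2, of the value in the text and 19 did not. With a pseudocount of 5 FPKM the number of genes 2-fold lower was 4 for both drugs against control, 4 for GSK458 against control and 6 for both drugs against As2O3, with medians of −0.39, −0.47 and −0.37, and the median for both drugs against GSK458 was 0.051. Among genes averaging 5 FPKM or more the same 3 counts were 5, 6 and 5 of 20 genes, where fewer genes are counted. With a pseudocount of 0.1 FPKM, 2 genes were 2-fold higher with both drugs than with GSK458 (1.39% of all genes). Rescaling each library to a sum of 1000000 put 1 gene 2-fold higher there (0.987% of all genes). It put the median departure from additivity at 0.27 (0.13 over all genes). It also moved the median of all genes to −0.11 for GSK458 against control, where that of the set was −1.11. At a 1.5-fold limit 18 genes were lower with both drugs than in the control (11.7% of all genes) and 18 lower with both drugs than with As2O3 (11.6%). At that limit 1 was higher with GSK458 than in the control (8.61%), 1 was lower and 1 higher with As2O3 than in the control (6.45% and 7.43%), and 3 were higher with both drugs than with GSK458 (2.19%). The cause of these shifts was not tested. Of 1120 values of single genes, 15 changed sign, all with a size of at most 0.046 in the text, and none of those 2-fold apart did. Depth is unknown, so what it limits for genes below 1 FPKM could not be computed.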
